A study of Homo sapiens with 6 samples.

Results

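Chromosomes 4, 9 and 13 of Calu-3, an established human cell line from a lung adenocarcinoma that serves as an airway epithelial model, were set against the other 19 autosomes in 4 chromatin immunoprecipitation sequencing (ChIP-seq) interval lists. All called intervals on these chromosomes were taken, 6153 of the 73341 in the lists. Chromosome 4 held 2932 of them, chromosome 9 held 2278 and chromosome 13 held 943. The other autosomes held 65709, and the 1479 on the sex chromosomes were not compared. The chromosomes were chosen by their low EHF peak yield in the same lists, so every EHF yield below is a description with no test.

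The series held 6 libraries, namely 2 EHF replicates made with antibody clone 5A.5, 1 library for each of H3K27ac and H3K4me1, and 2 inputs. All came from Calu-3, and the labels give no treatment and no contrast of genotype. Chromosomes 4, 9 and 13 held 67 EHF replicate 1 peaks, 249 EHF replicate 2 peaks, 2011 H3K4me1 regions and 3826 H3K27ac regions. The other autosomes held 1453, 4905, 29558 and 29793 of the same 4 kinds. The libraries had 10176290 tags (EHF replicate 1), 8418631 (EHF replicate 2), 12989646 (H3K4me1) and 21426939 (H3K27ac). Positions are hg19, and intervals in brackets are 95% intervals that cover counting error only.

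EHF (ETS homologous factor) belongs to the epithelium-specific group of ETS transcription factors, which bind DNA at short motifs with a GGA core and are known in airway epithelium for roles in differentiation, barrier and response to injury. H3K27ac, acetylation of histone H3 at lysine 27, marks active enhancers and promoters. H3K4me1, monomethylation of lysine 4, marks enhancers, active or primed, and the flanks of active promoters. A transcription factor peak within an H3K27ac region is thus usually read as binding at an active regulatory element.

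The number of EHF peaks was set over the number of H3K27ac regions, so that a chromosome with little active chromatin would not look poor in EHF for that reason alone. In replicate 2 the yield was 6.51 EHF peaks per 100 H3K27ac regions on chromosomes 4, 9 and 13, against 16.5 on the other autosomes. Chromosome 4 had 6.20 (5.10 to 7.46), chromosome 9 had 7.88 (6.44 to 9.55) and chromosome 13 had 4.71 (3.25 to 6.62). Over the 19 other autosomes the same yield averaged 16.6 ± 6.27 (SD over chromosomes) and reached 34.4 on chromosome 20. Counted from the lowest of 22 autosomes, chromosome 13 ranked 1, chromosome 4 ranked 2 and chromosome 9 ranked 4.

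Replicate 1, a list with fewer peaks from a deeper library, gave 1.75 EHF peaks per 100 H3K27ac regions on chromosomes 4, 9 and 13, against 4.88 on the other autosomes. Its yields were 1.60 on chromosome 4, 2.27 on chromosome 9 and 1.14 on chromosome 13. EHF sites shared by the replicates, meaning replicate 1 peaks that overlap a replicate 2 peak, numbered 0.863 per 100 H3K27ac regions, against 2.44. Outside H3K27ac regions, 81 replicate 2 peaks lay on chromosomes 4, 9 and 13 and 1787 on the other autosomes, or 0.190 and 0.759 per Mb of chromosome. The low EHF density was therefore not confined to acetylated chromatin.

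The set is not closed at its edge. Chromosome 21, which the choice left among the other autosomes, had 6.21 replicate 2 peaks per 100 H3K27ac regions, less than chromosome 9, and 0.716 in replicate 1, the lowest of all autosomes. The next chromosome above in replicate 2 was chromosome 6, at 11.6. In replicate 1 chromosome 6 had 1.47, lower than chromosomes 4 and 9. Chromosomes 4, 9 and 13 were thus among the lowest in both lists without being the lowest as a set in either.

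**Figure D1:**
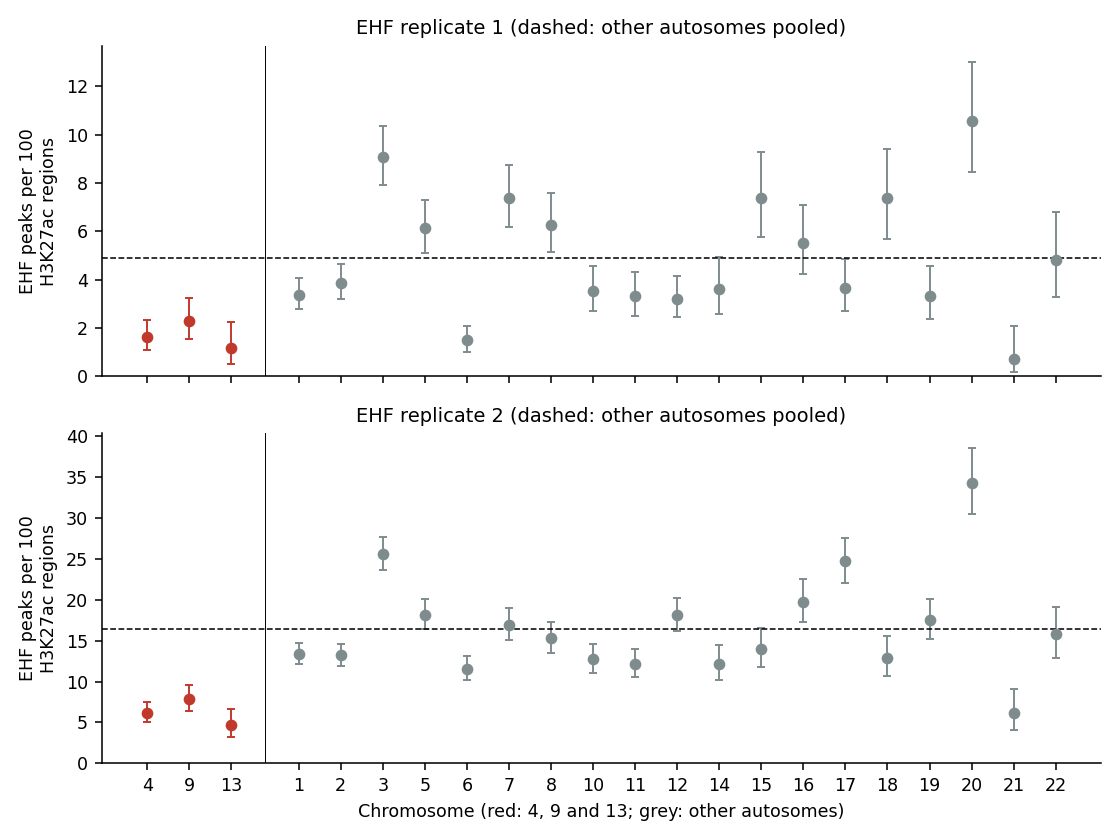
EHF peaks per 100 H3K27ac regions (vertical axis) on each autosome (horizontal axis) for replicate 1 above and replicate 2 below, with chromosomes 4, 9 and 13 in red at the left and the other autosomes in grey. Bars are exact 95% Poisson intervals on the number of peaks, and the dashed line is the pooled value of the other autosomes, 4.88 in replicate 1 and 16.5 in replicate 2. Chromosome 21 sits as low as the red points in both panels, and chromosome 6 does in replicate 1.

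The acetylated regions themselves differed in signal and not in width. Their median width was 1376.5 bp on chromosomes 4, 9 and 13 and 1370 bp on the other autosomes. The deposited score of a region, its tag count scaled by the authors to a library of 10000000 tags, was divided by the region's width. The median was 22.5 per kb (22.2 to 22.95) on chromosomes 4, 9 and 13, against 29.1 per kb (28.9 to 29.4) on the other autosomes, a ratio of 0.774. By chromosome the median score per kb was 22.6 on chromosome 4, 23.7 on chromosome 9 and 20.9 on chromosome 13, and the chromosome medians of the other 19 averaged 29.1 ± 2.54 (SD). Only chromosome 21 among those 19, at 22.03 per kb, was below chromosome 4 or chromosome 9.

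The shift was larger at the top of the distribution. The 90th percentile of score per kb was 39.9 on chromosomes 4, 9 and 13 and 58.7 on the other autosomes, while the lower quartiles were 18.3 and 21.2. Regions under the caller's threshold, 17 tags or a scaled score of 7.93, may be missing from the lower end. The part of this limit in the smaller lower shift was not tested. Regions were also sparser, with 8.99 H3K27ac regions per Mb of chromosome, against 12.6. The highest score per kb on chromosomes 4, 9 and 13 was 105, and the highest elsewhere was 2663, on chromosome 17. On the remaining autosomes the highest score per kb was 225, on chromosome 20. This score counts tags and is not divided by input, so it rises with the number of DNA copies as well as with enrichment. Copy number was not analysed here.

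H3K4me1 was scarcer still. There were 52.6 H3K4me1 regions per 100 H3K27ac regions on chromosomes 4, 9 and 13, against 99.2 on the other autosomes. Chromosome 4 had 54.5, chromosome 9 had 62.5 and chromosome 13 had 28.9, the lowest of all autosomes. Chromosomes 19 and 21, at 50.1 and 50.6, were the other low values, and chromosome 19 had this low value with an EHF replicate 2 yield of 17.5. Few H3K4me1 regions and few EHF peaks therefore did not go together on every chromosome.

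The H3K4me1 regions that were called lay close to the caller's limit. Their median score per kb was 19.96 on chromosomes 4, 9 and 13 and 23.7 on the other autosomes, a ratio of 0.842, and the median width was 501 bp in both. The caller's threshold of 13 tags equals a normalized score of 10.01. Regions with a score of 10 or less made up 36.6% (34.5% to 38.8%) of the H3K4me1 regions on chromosomes 4, 9 and 13 and 19.2% (18.7% to 19.6%) of those elsewhere. The weakest called regions were thus about 1.91 times as common a part of the list, and a still weaker mark signal may not have been listed. Chromosome 21, among the other autosomes, was as high at 35.4%, against 38.2% on chromosome 4, 35.2% on chromosome 9 and 35.1% on chromosome 13. The scaled threshold is no sharp lower limit of the deposited score. For EHF replicate 2 it equals 8.31, and the lowest listed score was 6.

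Across the 22 autosomes the median H3K27ac score per kb and the replicate 2 yield had a Pearson r of 0.807 and a Spearman rho of 0.907. Among the 19 other autosomes alone the values were 0.720 and 0.858. For the replicate 1 yield r and rho were lower, 0.655 and 0.619 over the 22 autosomes and 0.539 and 0.430 over the 19. H3K4me1 regions per 100 H3K27ac regions and the replicate 2 yield had an r of 0.533 over the 22 autosomes. These are descriptions with no test. The points come from the same libraries, the yields share the H3K27ac count, and chromosomes 4, 9 and 13 were chosen for their yield.

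**Figure D2:**
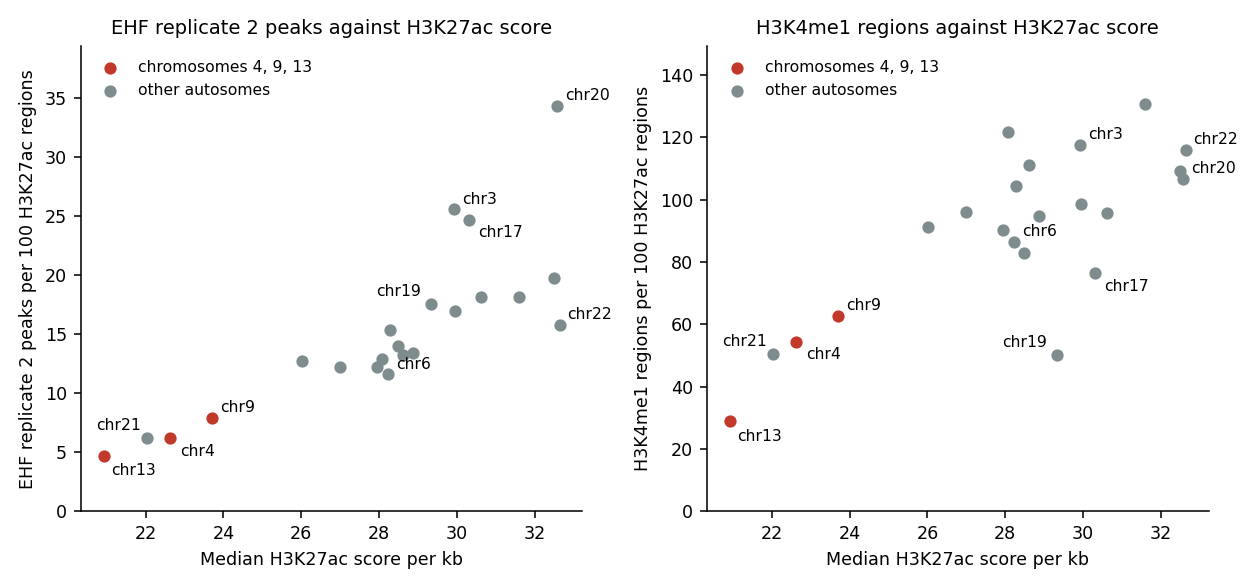
Each point is 1 autosome, with its median H3K27ac score per kb on the horizontal axis and, on the vertical axis, EHF replicate 2 peaks (left) or H3K4me1 regions (right) per 100 H3K27ac regions. Chromosomes 4, 9 and 13 (red) lie at the lower left of both panels with chromosome 21, and chromosome 19 is low in H3K4me1 only.

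Because EHF peaks sit more often in wide and strongly acetylated regions, the yield was then compared at matched width and score. H3K27ac regions of all autosomes were cut into 5 classes of width and 5 of score per kb, and each of the 25 combinations was given the share of EHF-holding regions seen on the other autosomes. Over all autosomes 9.14% of H3K27ac regions overlapped a replicate 2 peak, 2.69% a replicate 1 peak, 1.74% a shared EHF site and 35% an H3K4me1 region. On chromosomes 4, 9 and 13, 164 regions (4.29%) held a replicate 2 peak, against 241 expected from the other autosomes at the same width and score. The ratio of observed to expected was 0.680 (0.580 to 0.793). Without matching it was 0.439, so matching on width and acetylation brought the ratio nearer to 1 and left it below.

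In replicate 1, 45 regions held a peak, against 72.0 expected, a ratio of 0.625 (0.456 to 0.837). For shared EHF sites 29 were observed, against 44.6 expected, a ratio of 0.651 (0.436 to 0.935). Without matching these ratios were 0.407 and 0.406, and matched shared sites that scored above the median gave 0.413. All 3 chromosomes were below 1 in both lists. The replicate 2 ratios were 0.707 on chromosome 4, 0.729 on chromosome 9 and 0.481 on chromosome 13, and the replicate 1 ratios 0.555, 0.740 and 0.559. The replicate 1 intervals included 1 on chromosome 9 (0.452 to 1.14) and chromosome 13 (0.205 to 1.22), where 20 and 6 regions held a peak. The matched replicate 2 ratios of the other autosomes averaged 1.00 ± 0.189 (SD) and had their lowest value at chromosome 21, 0.635. In replicate 2 chromosome 13 was thus the lowest autosome after matching, with chromosome 21 next above it, then chromosome 4, then chromosome 9. In replicate 1 chromosomes 21 and 6, at 0.269 and 0.310, were lower than all 3, and chromosome 12, at 0.738, was just below chromosome 9. For shared EHF sites chromosomes 21 and 6, at 0.218 and 0.386, were again lower, against 0.570 on chromosome 4, 0.704 on chromosome 9 and 0.775 on chromosome 13. The shared-site intervals of chromosome 9 (0.364 to 1.23) and chromosome 13 (0.252 to 1.81) included 1 as well.

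The replicate 2 shares were then set side by side within each class of score per kb. In the lowest class of score per kb 0.984% of regions held a peak on chromosomes 4, 9 and 13, against 1.40% elsewhere, in the second 2.88%, against 3.27%, and in the middle class 5.69%, against 6.12%. In the fourth class the share was 7.36% (5.26% to 9.97%), against 11.4% (10.6% to 12.2%). In the highest class it was 15.8% (11.5% to 21.1%; 38 of 240 regions), against 24.3% (23.3% to 25.4%; 1577 of 6484). The replicate 2 share was thus lower on chromosomes 4, 9 and 13 in each of these 5 classes. The gap had more percentage points in the 2 upper classes than in the 3 lower ones, and points grow with the shares themselves. In the second class the shares were higher for replicate 1 (0.865%, against 0.757%) and for shared EHF sites (0.480%, against 0.440%). Both were lower in the other classes. These chromosomes were chosen for low EHF yield in the same lists, so the intervals are no test of a difference in any class. Chromosomes 4, 9 and 13 also had only 6.27% of their regions in the highest class, against 21.8%, and within it their median score was lower, 51.3 per kb against 57.1.

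These score classes do not hold width constant, and regions of equal score per kb were wider on chromosomes 4, 9 and 13. With the score axis cut into 10 classes, regions between 44.4 and 56.8 per kb had a median width of 4001 bp there and 2317 bp elsewhere, and 16.6% (11.5% to 22.8%) and 18.01% (16.7% to 19.4%) of them held a replicate 2 peak. Above 56.8 per kb 8 of 59 regions held a peak, 13.6% (6.04% to 24.98%), against 30.4% (28.8% to 32.0%). In the fifth of the 10 classes the replicate 2 share was higher, 5.92% (3.90% to 8.56%), against 4.65% (3.92% to 5.48%). In all the rest it was lower, by little in the second, 1.485%, against 1.489%. At equal width the replicate 2 share was lower in all 5 classes. It went from 1.04%, against 1.51%, in the narrowest to 9.09%, against 20.9%, in the widest.

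Overlap with H3K4me1 was lower too. After matching, 879 regions on chromosomes 4, 9 and 13 held an H3K4me1 region, against 1416 expected, a ratio of 0.621 (0.580 to 0.663). With only the H3K4me1 regions that scored above the median of their list, the ratio was 0.385 (0.344 to 0.430). In the lowest class of score per kb 15.2% of regions held the mark, against 26.3% elsewhere. In the middle class the share was 23.5%, against 36.8%. In the fourth class it was 32.9% (28.9% to 37.2%), against 39.1% (37.9% to 40.3%). In the highest it was 47.1%, against 47.4%. With 10 score classes, regions above 56.8 per kb held the mark in 66.1% (52.6% to 77.9%) of cases, against 50.7% (49.02% to 52.5%). In the score classes the H3K4me1 share was thus lower where acetylation was weak, and not in the highest class.

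In the width classes, which do not hold score constant, the H3K4me1 share was lower in all 5, as the EHF share was. In the narrowest class it was 12.4% (10.2% to 14.97%), against 23.5% (22.4% to 24.6%), and in the widest 45.5% (41.8% to 49.1%), against 63.1% (61.8% to 64.3%). Regions of equal score per kb were wider on chromosomes 4, 9 and 13, so the profile over score classes is not a profile at fixed width.

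**Figure D3:**
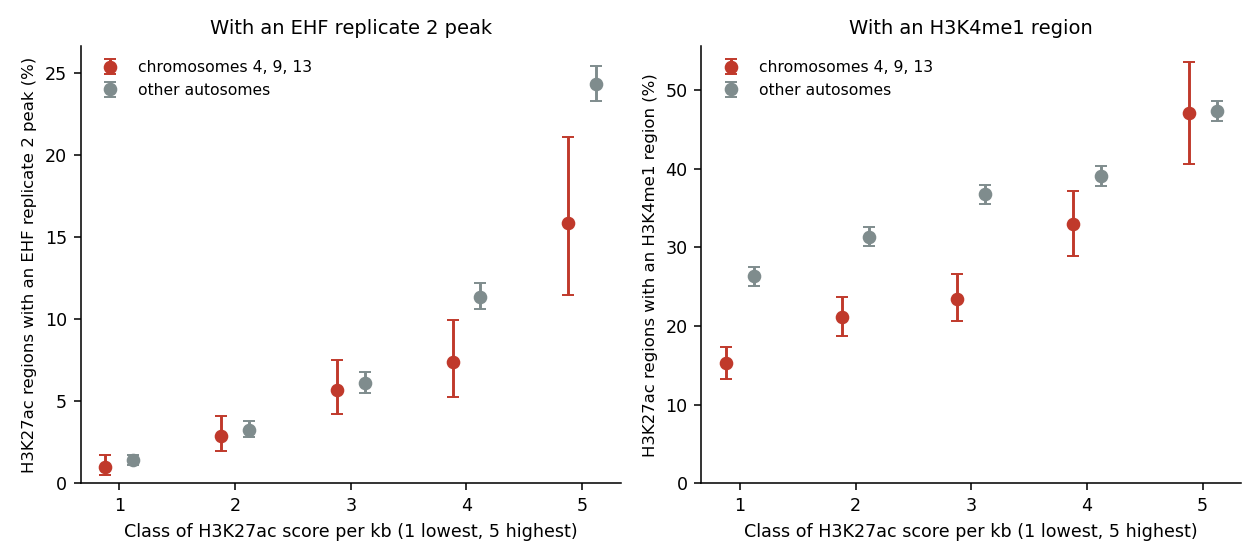
Share of H3K27ac regions with an EHF replicate 2 peak (left) or an H3K4me1 region (right), in percent, by class of H3K27ac score per kb from lowest (1) to highest (5), with exact 95% binomial intervals. The red points of chromosomes 4, 9 and 13 part from the grey points of the other autosomes at the high classes for EHF, 15.8% against 24.3% in class 5. For H3K4me1 they part in every class but the highest, with 15.2% against 26.3% in class 1.

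Bins of 10 Mb showed how evenly the shortfall was spread. Of the bins with at least 30 H3K27ac regions, 38 lay on chromosomes 4, 9 and 13 and 232 on the other autosomes. Replicate 2 peaks per 100 H3K27ac regions had a median of 5.87 over the 38 bins (range 0 to 16.9) and 13.3 over the 232. The matched replicate 2 ratio had a median of 0.575 (quartiles 0.412 and 0.885), against 0.933 (quartiles 0.708 and 1.17). It was under 1 in 32 of 38 bins, against 134 of 232, and under 0.5 in 15 bins (39.5%), against 29 (12.5%). Neighbouring bins of the same chromosome share a library and are no replicates of each other, so these counts have no test.

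Median H3K27ac score per kb was more uniform than EHF. It lay between 19.96 and 25.5 in all 38 bins of chromosomes 4, 9 and 13, and between 19.4 and 57.9 in the 232 bins elsewhere, whose median was 28.6. The matched H3K4me1 ratio was under 1 in 36 of 38 bins, against 106 of 232, with medians of 0.635 and 1.03. Across the 38 bins the matched ratios of replicates 1 and 2 had a Pearson r of 0.549 and a Spearman rho of 0.574, and across the 232 others 0.481 and 0.459. The 38 bins hold few peaks each, and both ratios use the same H3K27ac regions.

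On chromosome 4 the bins were mixed along the whole length. From 30 to 40 Mb, 9 H3K27ac regions held a replicate 2 peak, against 5.06 expected, and from 140 to 150 Mb 11 did, against 8.25 expected. The first 10 Mb had 94 H3K27ac regions and none with a peak, against 4.37 expected, and from 60 to 70 Mb none of 33 did, against 1.91 expected. H3K4me1 ratios were under 1 in all 19 bins, between 0.284 and 0.789. EHF thus varied between bins more than H3K4me1 did, on small counts.

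Chromosome 9 fell into unlike parts on the sides of a stretch from 38682810 to 66458082 that held no interval of any list. Below it, 36 of 416 H3K27ac regions held a replicate 2 peak, against 32.1 expected, a ratio of 1.12 (0.785 to 1.55). Above it, 30 of 903 regions did, against 58.4 expected, a ratio of 0.514 (0.347 to 0.734). Replicate 1 had the same order, with 12 observed and 9.87 expected below and 8 observed and 17.2 expected above. The part below the gap was therefore not poor in EHF at its level of acetylation, although its median H3K27ac score of 24.8 per kb was still lower than the 29.1 of the other autosomes.

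The bins of chromosome 9 repeat this. From 0 to 10 Mb 11 regions held a peak, against 8.80 expected, and from 10 to 20 Mb 9 did, against 5.79 expected. The lowest were at 90 to 100 Mb, with 2 observed and 11.7 expected among 169 regions, and at 120 to 130 Mb, with 1 observed and 5.43 expected. The H3K4me1 ratio was 0.904 (0.763 to 1.06) below the gap and 0.664 (0.579 to 0.758) above it, so both measures were nearer to the other autosomes below the gap. The division at the gap was chosen after these values were seen.

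Chromosome 13 was lowest in its last part, from 60 Mb to the last interval at 115048052. That part held 305 H3K27ac regions of ordinary width, with a median of 1439 bp, and a median score of 19.96 per kb (19.3 to 20.7). It held 13 H3K4me1 regions, with scores of at most 14, and 9 of them scored 10 or less. It held no replicate 1 peak and 4 replicate 2 peaks, none above a score of 13. H3K27ac regions were sparse as well. Chromosome 13 as a whole had 7.38 per Mb, against 12.6 on the other autosomes. Its bins from 60 to 70 Mb and from 80 to 90 Mb held 11 each, and the other bins from 60 Mb held 48 to 90. Acetylated regions were thus fewer and weaker in this part, while the other 3 lists were almost empty.

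In counts of H3K27ac regions, 3 held a replicate 2 peak there, against 12.8 expected, a ratio of 0.234 (0.0483 to 0.684). None held a replicate 1 peak, against 3.52 expected, which is a count too small to measure a ratio. An H3K4me1 region lay in 5 of the 305, or 1.64% (0.534% to 3.78%), against 109 expected, a ratio of 0.046 (0.0149 to 0.107). No H3K4me1 region was listed between 53225501 and 73740166, a stretch of 20.5 Mb with 32 H3K27ac regions, nor among the 63 H3K27ac regions after 108489138. Bins with an H3K4me1 ratio as low as the 4 from this part, 0.130 at most, were 2 of the 232 on the other autosomes, at 30 to 40 Mb on chromosome 15 and 20 to 30 Mb on chromosome 20.

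The part of chromosome 13 below 60 Mb was closer to chromosome 4. It held 395 H3K27ac regions with a median score of 22.4 per kb and 189 H3K4me1 regions. A replicate 2 peak lay in 15 regions, against 24.6 expected, a ratio of 0.609 (0.341 to 1.00), and an H3K4me1 region in 76, against 147 expected. Its highest bins were 30 to 40 Mb, with 6 observed and 6.51 expected, and 20 to 30 Mb, with 4 observed and 5.65 expected. With the part from 60 Mb left out, a division made after the values were seen, the matched ratios of chromosomes 4, 9 and 13 together were 0.705 for replicate 2, 0.657 for replicate 1 and 0.669 for H3K4me1.

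**Figure D4:**
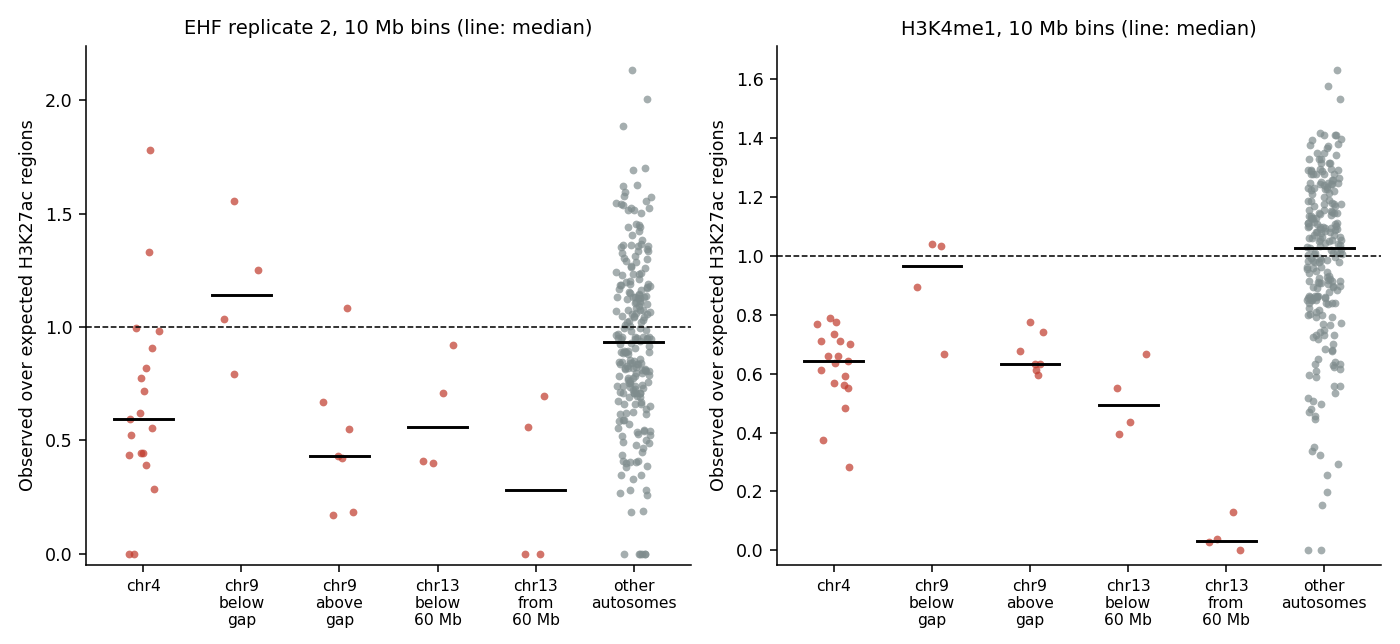
Ratio of observed to expected H3K27ac regions (vertical axis) with an EHF replicate 2 peak (left) or an H3K4me1 region (right) in 10 Mb bins, expected from the other autosomes at the same width and score. Each point is a bin, the thick line the median of its group, and the dashed line a ratio of 1. The 4 bins of chromosome 9 below the gap have a replicate 2 median of 1.14, and the 4 bins of chromosome 13 from 60 Mb have an H3K4me1 median of 0.033.

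The EHF peaks that remained were of ordinary median score but lacked the strongest ones. In replicate 1 the median score was 9 on chromosomes 4, 9 and 13 and on the other autosomes, and the maxima were 14 and 45. None of 67 peaks reached a score of 15, against 129 of 1453 (8.88%). In replicate 2 the medians were 11 and 12 and the maxima 33 and 693. The 693 was on chromosome 17, and the highest score on the remaining autosomes was 84, on chromosome 8. In replicate 2, 8 of 249 peaks (3.21%) scored 24 or more, against 359 of 4905 (7.32%). Peaks of 6 to 10 made up 41.0% of the replicate 2 peaks on chromosomes 4, 9 and 13 and 30.9% elsewhere. The score distribution was thus shorter at its upper end.

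Over all autosomes 63.8% of replicate 2 peaks, 60.7% of replicate 1 peaks and 77.8% of shared EHF sites lay in H3K27ac regions. On chromosomes 4, 9 and 13, 168 of 249 replicate 2 peaks did, 67.5% (61.3% to 73.3%), against 63.6% elsewhere, a difference of 3.90 percentage points (-2.29 to 9.58, Newcombe interval). In replicate 1, 45 of 67 peaks did (67.2%), against 60.4%, and 29 of 33 shared EHF sites did (87.9%), against 77.3%. The pooled replicate 2 shares were thus close, with an interval that includes 0 but does not show that they were equal. Among the weakest peaks the share was higher. Of replicate 2 peaks scoring 6 to 10, 63.7% (53.6% to 73.0%) lay in H3K27ac, against 52.1% (49.6% to 54.6%). Of replicate 1 peaks scoring 6 to 8, 63.3% did, against 47.5%. Among stronger peaks the share was lower only for replicate 2 at 11 to 14 (65.7%, against 66.8%) and replicate 1 at 12 to 14 (66.7%, against 76.4%).

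Recurrence between replicates was also close. Over all autosomes 50% of replicate 1 peaks were found in replicate 2 and 14.7% of replicate 2 peaks in replicate 1. On chromosomes 4, 9 and 13, 33 of 67 replicate 1 peaks were found in replicate 2, 49.3% (36.8% to 61.8%), against 50.03%, a difference of -0.781 points (-12.7 to 11.2). From the other side 13.3% of replicate 2 peaks recurred, against 14.8%. The interval on the replicate 1 difference is wide, and it does not show that recurrence was equal.

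Contact with H3K4me1 did differ. Over all autosomes 7.99% of replicate 2 peaks, 10.2% of replicate 1 peaks and 9.34% of shared EHF sites overlapped an H3K4me1 region. On chromosomes 4, 9 and 13, 3 of 249 replicate 2 peaks did, 1.20% (0.249% to 3.48%), against 409 of 4905, 8.34% (7.58% to 9.15%). In replicate 1, 2 of 67 did (2.99%), against 10.5%, and none of 33 shared EHF sites did (upper limit 10.6%), against 71 of 727 (9.77%). Within 2000 bp of an H3K4me1 region lay 28.5% of replicate 2 peaks, against 42.7%, and 29.9% of replicate 1 peaks, against 45.3%. H3K4me1 regions were also fewer on these chromosomes, and their part in these shares was not tested.

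The 33 shared EHF sites were 15 on chromosome 4, 12 on chromosome 9 and 6 on chromosome 13. Their scores were 7 to 14 in replicate 1, with a median of 10, and 10 to 33 in replicate 2, with a median of 15. Chromosome 9 had the highest median in replicate 2, 19, against 14 on chromosome 4 and 12 on chromosome 13. The best-ranked sites by mean rank in both lists, 4 per chromosome, are described next, to show where the highest shared signal of each chromosome lies. On chromosome 13, with 6 sites, this takes in sites with lower scores than some of those not named on chromosome 9.

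The highest-ranked site of all 33 was on chromosome 9 at 14212892 to 14213042, with scores of 14 in replicate 1 and 29 in replicate 2. The H3K27ac region around it was 7559 bp wide with a score of 282, and its centre was 693 bp from an H3K4me1 region. The site at 19380170 to 19380336 scored 11 and 33, the highest replicate 2 score on chromosomes 4, 9 and 13, in an H3K27ac region of 2286 bp. Both lie below the gap of chromosome 9, as does the site at 4243203 to 4243356, which scored 13 and 24. The remaining named site, at 84352735 to 84352917 above the gap, scored 14 and 23 in a region of 2496 bp.

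On chromosome 13 the best-ranked shared site was at 41848275 to 41848425, with scores of 14 and 25, in an H3K27ac region of 1417 bp and 40070 bp from the nearest H3K4me1 region. The second, at 47558164 to 47558314 with scores of 13 and 20, lay outside H3K27ac, 51414 bp from the nearest region, and 185842 bp from H3K4me1. The sites at 35322318 to 35322468 (scores 11 and 12) and 24723025 to 24723175 (scores 10 and 11) lay in H3K27ac regions of 2884 and 3279 bp, 502 and 319 bp from H3K4me1. All 6 shared sites of chromosome 13 are below 60 Mb. The 2 higher-scoring sites were thus far from H3K4me1, and the 2 near it had lower scores.

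Chromosome 4 had lower replicate 1 scores, with a median of 8 over its shared sites, against 11 on chromosome 9 and 10.5 on chromosome 13. Its replicate 2 median of 14 lay between the 19 of chromosome 9 and the 12 of chromosome 13. Its best-ranked sites were at 77586479 to 77586630 (10 and 21, in an H3K27ac region of 3540 bp), 38689210 to 38689362 (10 and 19), 19741083 to 19741251 (10 and 17, in a region of 1728 bp) and 185276422 to 185276572 (8 and 21, in a region of 1695 bp). The second touched the edge of an H3K27ac region of the minimum width of 501 bp, with its centre 58 bp outside. Only the first and second were within 2000 bp of H3K4me1, at 304 and 344 bp.

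Some replicate 2 peaks without a replicate 1 partner scored as high as these. On chromosome 4 the highest were at 187858247 to 187858371, with a score of 30, and 89700709 to 89700833, with 29. On chromosome 9 they were at 75758979 to 75759103, with 26, and 94065240 to 94065364, with 20 and 9433 bp outside H3K27ac. On chromosome 13 they scored 18 and 14, at 25085648 to 25085772 and 34739402 to 34739526. Of the peaks at 24 or above in that list, 4 of 8 recurred on chromosomes 4, 9 and 13, against 181 of 359 (50.4%) on the other autosomes.

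Broad acetylated domains were present on these chromosomes and held little EHF. Of 189 H3K27ac regions of at least 5000 bp, 26 held a replicate 2 peak, 13.8% (9.19% to 19.5%), against 492 of 1600, 30.8% (28.5% to 33.1%), elsewhere. In replicate 1 the shares were 5.29% and 11.6%. More than a single replicate 2 peak was found in 2 of these regions, against 86. Their median score was 42.9 per kb, against 58.0, and 61.4% of them held H3K4me1, against 77.1%.

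The widest on chromosome 4 ran from 157858262 to 157894211, 35950 bp, and ranked 4 in width of all 33619 autosomal H3K27ac regions. It held 3 H3K4me1 regions and no EHF peak of either list. The next, from 75223786 to 75254029 (30244 bp, ranked 9), held neither EHF nor H3K4me1. The highest score without EHF was at 75577942 to 75597656, a score of 2072 over 19715 bp, with 2 H3K4me1 regions. Very wide acetylation on chromosome 4 thus occurred without a listed EHF peak, with and without H3K4me1. It also occurred with EHF. A region from 11611202 to 11639217 (28016 bp, score 1691) held the shared EHF site at 11634143 to 11634406. On the other autosomes, too, only 30.8% of regions of at least 5000 bp held a replicate 2 peak.

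On chromosome 9 the widest region, from 21548366 to 21572536 (24171 bp), held 2 replicate 2 peaks and no H3K4me1 region, and its neighbour from 21574766 to 21597655 (22890 bp) held no EHF peak and 1 H3K4me1 region. The region from 97668885 to 97686671 (17787 bp) held 5 H3K4me1 regions and no EHF peak. On chromosome 13 the widest were at 73628853 to 73651873 (23021 bp, score 752) and 111557800 to 111569914 (12115 bp, score 389), both in the part from 60 Mb and both without EHF and H3K4me1. The region at 49162425 to 49169006, with a score of 406 over 6582 bp, the second highest without EHF on chromosome 13, held no H3K4me1 either.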

How the data were processed

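ChIP-seq intervals of Calu-3 were compared within 4 deposited lists. The submitters' processing notes name Bowtie 1.0.0, HOMER 1.2 and the build hg19. Calls were made library by library with HOMER findPeaks, per the file headers, at a false discovery rate of 0.01 and at 4-fold over input. The deposited score is, per the file headers, a normalized tag count that the authors scaled to 10000000 tags; it is not divided by input. A mark too weak for the caller is missing from a list, so shares can fall where signal is low. Reads and input libraries were not analysed here.

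Overlap meant at least 1 bp. Expected counts took the share on the other 19 autosomes in each of 25 classes of H3K27ac width and score per kb (5 by 5, cut over all autosomes). Intervals are exact 95% binomial, Poisson or order-statistic intervals, or Newcombe's for differences, and cover counting error only; a ratio's interval treats the expected count as fixed. Python 3.11.15, numpy 2.4.6, pandas 2.3.3, scipy 1.17.1 and matplotlib 3.10.9 were used. No p-values are given: each mark has 1 library, neighbouring intervals are not independent, and no label states if separate cultures gave the EHF replicates.

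The chromosomes, lists and rules were chosen with earlier results of these data known. Named per chromosome were the 4 best shared EHF sites by mean score rank, the 2 highest replicate 2 peaks without a partner, the 2 widest H3K27ac regions, the 2 highest-scoring ones without EHF, and the 2 highest and 2 lowest 10 Mb bins by matched replicate 2 ratio. The reference tables at hand were of another build, so genes, marker loci, motifs and sequences were not analysed here.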

Additional observations from a re-analysis of the deposited data

How the results depend on the processing

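Of 101 alternative values, 76 lay within the interval of the reported value and 25 outside it, and no ratio crossed 1. The EHF and H3K4me1 overlap ratios (chromosomes 4, 9 and 13 over the other autosomes) were below 1 in every alternative run, matched or not. They were 0.399 to 0.689 for replicate 1, 0.419 to 0.717 for replicate 2, 0.401 to 0.724 for shared EHF sites and 0.385 to 0.688 for H3K4me1. Low EHF ratios were set by the choice of chromosomes for low EHF yield. Without chromosome 4 the interval included 1 for replicate 1 (0.450 to 1.01) and for shared EHF sites (0.421 to 1.16). Without matching, replicate 1, replicate 2 and shared sites gave 0.407, 0.439 and 0.406, and as peaks per acetylated base 0.399, 0.419 and 0.401. Peaks and regions scoring above their list's median gave 0.520 for replicate 2, 0.413 for shared sites and 0.385 for H3K4me1. Shared sites need both lists, so leaving out replicate 1 or 2 gave only the ratio of the other list, 0.680 or 0.625. These repeat the ratios reported for the single lists, are counted among the 101, and say nothing further on shared sites. The H3K4me1 ratio was 0.556 without chromosome 9, 0.688 without chromosome 13 and 0.669 without chromosome 13 from 60 Mb. The H3K27ac score per kb ratio of 0.774 became 0.697 for total score over total kb, 0.729 for regions of at least 1000 bp, 0.793 for bin medians, 0.756 without chromosome 9, 0.791 without chromosome 13 and 0.788 without its part from 60 Mb. The H3K4me1 score per kb ratio of 0.842 became 0.835 for totals, 0.881 for merged regions, 0.826 for regions of at least 1000 bp, 0.886 for bin medians, 0.853 without chromosomes 3 and 20 or without chromosome 4, and 0.841 with chromosome 21 left out of the comparison. The difference in the share of EHF peaks in H3K27ac ranged from -0.0641 (without chromosome 4) to 6.81 points and that in recurrence from -4.27 to 6.72 (without chromosome 9; 0.136 by peak centre), so both changed sign, with intervals that include 0 in every case. The H3K4me1 overlap, the 60 Mb division and the removal of chromosome 21 were chosen after seeing the data, and the causes of these shifts were not tested. No paired analysis was possible because each mark has 1 library and the EHF replicates are not 2 arms of a comparison. Depth limits single bins, most of which hold few peaks.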

Other observations

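The X chromosome, which belongs to no comparison above, had values near those of chromosomes 4, 9 and 13. It held 1018 H3K27ac regions with a median score of 23.3 per kb, 37.4 H3K4me1 regions, 1.67 EHF replicate 1 peaks and 5.99 EHF replicate 2 peaks per 100 H3K27ac regions. The 29 bins of the other autosomes with a matched replicate 2 ratio under 0.5 included 5 on chromosome 6, 5 on chromosome 10 and 2 on chromosome 21. On chromosome 15 the bin from 30 to 40 Mb had 76 H3K27ac regions, 0 H3K4me1 regions and 0 EHF peaks of either list, with a median H3K27ac score of 20.1 per kb.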
